A study of Mus musculus with 60 samples.

Results

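The genes described here are 10 transcription factors of the adipogenic cascade: Pparg, Cebpa, Cebpb, Cebpd, Klf4, Klf5, Klf15, Zfp423, Rxra and Srebf1. They were taken by name from the 22893 genes in the deposited tables, and each symbol matched 1 Ensembl identifier in each of the 5 tables. RNA of 60 mouse libraries had been sequenced in 3 experiments. Experiment 1 followed adipogenic differentiation at days 0, 2, 4 and 6, with 3 wild-type libraries a day in each of B9 (an immortalized line of brown preadipocytes), pBAT (primary brown preadipocytes) and pWAT (primary white preadipocytes). The primary cells came from pups at p0 or p1 and were kept for about 4 to 6 days in DMEM with 20% serum, whereas B9 cells were kept in 10% serum. Experiment 2 had 16 libraries of wild-type pBAT cells that were differentiated with Vehicle, with SA (succinylacetone, an inhibitor of heme synthesis) at 1 mM, with HA (heme-arginate) at 10 µM, or with both (HASA), 4 libraries each. An R stands in the column names of the B9 libraries of days 2, 4 and 6 but not of day 0. Its meaning is not given in the sources used here, and any difference it marks cannot be told apart from the B9 changes from day 0. The labels do not give the day of harvest in experiment 2. Experiment 3 had brown adipose tissue of 4 WT and 4 BAKO female mice, each library from its own animal. BAKO mice lack Alas1, the first enzyme of heme synthesis, in brown adipocytes. The driver of the Cre and the ages of the mice are not given in the sources used here. The labels do not say that the libraries of a culture group came from separate cultures, so p-values in experiments 1 and 2 measure the spread between libraries, which may be technical.

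Fat cell differentiation runs through a cascade of transcription factors. The hormonal stimulus first raises C/EBPβ and C/EBPδ (encoded by Cebpb and Cebpd), helped by Krüppel-like factors such as KLF4 and KLF5. These factors act on the genes of PPARγ and C/EBPα (Pparg and Cebpa), which then sustain each other's expression and switch on the genes of the mature fat cell. PPARγ binds DNA as a heterodimer with RXRα (Rxra). KLF15 (Klf15) and SREBP-1 (Srebf1) act later, in metabolic and lipogenic gene expression, and ZFP423 (Zfp423) is known for committing mesenchymal cells to the preadipocyte fate and for restraining the brown program in white fat. In mouse, Pparg has several promoters, and C/EBP proteins are known to act at the one of its fat-selective isoform.

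Promoter sequences are shown for Pparg, Cebpa and Klf15, which rose strongly in all 3 cell types, and for Klf4 and Zfp423, which went in different directions at day 2. RefSeq (GRCm38.p6) gave 14 starts for 8 of the 10 members, and Cebpd and Klf5 are named only. Each line gives the 250 bases before a start, 5′ to 3′ on the gene's strand. Capitals mark matches to short motifs, which were searched on both strands. The motif of the C/EBP factors was spelled TTGCNNAA. An E-box read by several basic helix-loop-helix factors was spelled CACGTG. For the core of the sterol regulatory element TCACNCCA was used. For the GC box of Sp and Krüppel-like factors the search used GGGCGG. The related box of the same family, called the CACCC box here, was spelled CCACCC. The TATA box was spelled TATAAA. The direct repeat bound by PPARγ with RXR and the glucocorticoid element were searched as well.
Pparg start 1 (chr6:115360894-115361143, plus strand): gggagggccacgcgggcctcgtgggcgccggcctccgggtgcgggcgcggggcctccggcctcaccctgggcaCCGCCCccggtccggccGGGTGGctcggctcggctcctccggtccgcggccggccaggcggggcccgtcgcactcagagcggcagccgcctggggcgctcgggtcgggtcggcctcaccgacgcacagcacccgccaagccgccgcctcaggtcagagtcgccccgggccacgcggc
Pparg start 3 (chr6:115421816-115422065, plus strand): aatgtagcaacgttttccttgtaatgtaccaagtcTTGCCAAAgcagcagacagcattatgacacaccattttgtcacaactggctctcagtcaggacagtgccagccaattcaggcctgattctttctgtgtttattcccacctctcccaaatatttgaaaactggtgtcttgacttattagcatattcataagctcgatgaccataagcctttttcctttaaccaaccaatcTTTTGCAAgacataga
Cebpa (chr7:35119043-35119292, plus strand): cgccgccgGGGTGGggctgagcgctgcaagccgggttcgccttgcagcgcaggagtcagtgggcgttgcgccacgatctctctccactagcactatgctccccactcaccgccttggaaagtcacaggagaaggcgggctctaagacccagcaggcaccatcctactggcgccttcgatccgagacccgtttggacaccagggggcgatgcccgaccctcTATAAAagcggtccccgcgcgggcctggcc
Klf15 (chr6:90462326-90462575, plus strand): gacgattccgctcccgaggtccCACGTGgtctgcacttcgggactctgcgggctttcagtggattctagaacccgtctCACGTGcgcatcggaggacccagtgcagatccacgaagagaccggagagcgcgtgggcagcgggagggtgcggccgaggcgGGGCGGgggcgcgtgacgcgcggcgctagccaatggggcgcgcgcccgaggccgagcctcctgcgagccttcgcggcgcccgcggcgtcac
Klf4 (chr4:55532476-55532725, minus strand): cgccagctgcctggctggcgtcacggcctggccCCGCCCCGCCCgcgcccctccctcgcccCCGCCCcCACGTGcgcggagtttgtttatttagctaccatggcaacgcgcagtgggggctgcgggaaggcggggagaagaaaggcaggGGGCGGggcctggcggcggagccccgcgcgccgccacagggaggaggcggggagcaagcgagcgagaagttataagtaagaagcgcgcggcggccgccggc
Zfp423 start 1 (chr8:87959596-87959845, minus strand): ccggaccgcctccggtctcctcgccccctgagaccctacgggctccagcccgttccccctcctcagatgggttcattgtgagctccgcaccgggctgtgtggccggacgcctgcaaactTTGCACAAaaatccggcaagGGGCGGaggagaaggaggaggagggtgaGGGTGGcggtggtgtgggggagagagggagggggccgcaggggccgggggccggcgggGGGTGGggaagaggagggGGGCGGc

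The start 3 window of Pparg held 2 matches to the C/EBP motif, from -215 to -208 and from -16 to -9 before the start. This motif was found in 9.57% of the 32817 RefSeq promoter windows of the same length, and among the members' other windows only in start 1 of Zfp423. The start 1 window of Pparg held a GC box and a CACCC box instead. GC boxes were found in 32.7% of all windows and CACCC boxes in 28.1%. The Cebpa window held a TATA box from -30 to -25 (12.4% of all windows) and a CACCC box. In the Klf15 window CACGTG occurred at -228 and at -172, and in the Klf4 window once, at -182, against 6.02% of all windows. The Zfp423 window held 1 C/EBP match, from -131 to -124, with 2 GC boxes and 2 CACCC boxes. Klf4 also held 4 GC boxes, of which 2 share the base at -212. No match was found to the sterol element (3.67% of all windows), the direct repeat (0.0335%) or the glucocorticoid element (0.387%) in any window of a member. With shares this low, the lack of a match says little about these genes. The matches found are letters in a window and do not show binding. The deposited values are per gene, so they do not show which Pparg start was used.

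All values below are on the log2 scale on which the tables were deposited. A difference of 1 is a doubling, but low values are compressed on this scale and changes of weakly expressed genes are understated. The 5 tables were treated as normalized separately, so levels and changes were tested within a table only, and levels of different genes are not compared because the values are not per length. Changes are given with their standard error from limma, and a gene is said to have risen or fallen only where the Benjamini-Hochberg adjusted p over all genes of the table was under 0.05. Groups are said not to overlap where every library of one lies beyond every library of the other. Between days this held for 42.5 to 79.4% of all genes tested. Between treatments the share was 14.7% (HA against Vehicle) to 39.8% (HASA against Vehicle), and between genotypes 5.59%. Values of single libraries are listed in the order of their replicate numbers. Read depth cannot be recovered from these values.

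The labelled cell types were compared with their markers. The log2 sum of 6 adipocyte markers was 8.75 to 9.18 in the B9 libraries of day 0 and 17.0 to 17.1 in those of day 6. In pBAT it was 10.5 to 10.7 and then 17.2 to 17.4, and in pWAT 10.4 to 10.7 and then 17.3. Ucp1, the uncoupling protein of brown fat, reached 7.65 to 7.85 in B9 and 5.87 to 6.91 in pBAT at day 6 and lay between -0.96 and -0.68 in every pWAT library. The log2 sum of all 5 brown adipocyte markers nevertheless went up in pWAT too, to 10.2 in each day 6 library from 5.84 to 5.90 at day 0, against 11.03 to 11.09 in B9 and 12.03 to 12.29 in pBAT at day 6. In pWAT Cox7a1, Cox8b and Ppargc1a rose, and Ucp1 and Cidea were under the filter on low values. The preadipocyte sum (6 genes) was 14.8 to 14.9 at day 0 and 12.9 to 13.2 at day 6 in B9, and 15.4 to 15.6 and then 14.0 to 14.2 in pBAT. In pWAT it was 15.4 to 15.6 at day 0, 15.7 to 15.8 at days 2 and 4, and 15.1 to 15.4 at day 6. By day 6, 1 of the 6 was higher and 5 lower in B9, 2 and 4 in pBAT, and 4 and 2 in pWAT. Markers of other cells moved as well. The macrophage sum (8 genes) was 11.7 to 11.9 at day 0 and 13.9 to 14.1 at day 6 in pBAT, and 11.2 to 11.3 and then 14.5 to 14.6 in pWAT. All 8 markers were called higher by day 6 in both. The B9 table lists 5 of the 8, 2 of them passed the filter on low values, and the sum of the 5 lay between 6.13 and 7.52 on all days. The smooth muscle sum (4 genes) was 16.1 to 17.3 on day 0 across the 3 cell types and 10.6 to 12.2 on day 2, with 4 of 4 lower in pBAT and pWAT and 3 of 4 in B9, where Myh11 rose by 1.64. Skeletal muscle sums at day 0 were 10.0 to 10.2 in pBAT (6 markers listed) and 9.42 to 9.72 in pWAT (5 markers listed), against 6.57 to 6.89 and 5.68 to 6.05 at day 2. The part of these cells in the members' changes was not tested, and in bulk RNA fewer cells of a type and less RNA per cell cannot be told apart.

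In the first 2 days of differentiation nearly all of the factors rose. In B9, 8 of the 10 members rose from day 0 to day 2 and 2 fell (69.2% of all genes called, 35.1% higher and 34.0% lower). In pBAT 8 rose and 2 fell (66.5% of all genes called, 36.7% higher and 29.7% lower). In pWAT all 10 rose (52.7% of all genes called, 27.1% higher and 25.5% lower). The median change of the members was 1.90 in B9, 1.63 in pBAT and 1.38 in pWAT, against 0.02, 0.07 and 0.02 over all genes tested. From day 2 to day 4 the members divided. In B9 5 rose and 4 fell (59.2% of all genes called, 30.6% higher and 28.7% lower), in pBAT 7 rose and 3 fell (63.8% of all genes called, 32.2% higher and 31.6% lower), and in pWAT 6 rose and 3 fell (47.9% of all genes called, 25.1% higher and 22.8% lower). From day 4 to day 6, 5 rose and 4 fell in B9 (53.4% of all genes called, 26.6% higher and 26.8% lower). In pBAT 1 rose and 6 fell (43.0% of all genes called, 19.8% higher and 23.2% lower), and in pWAT 3 rose and 4 fell (31.5% of all genes called, 16.1% higher and 15.4% lower). Many genes were called in each comparison, so a count of members called says little about these genes in particular.

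**Figure D1:**
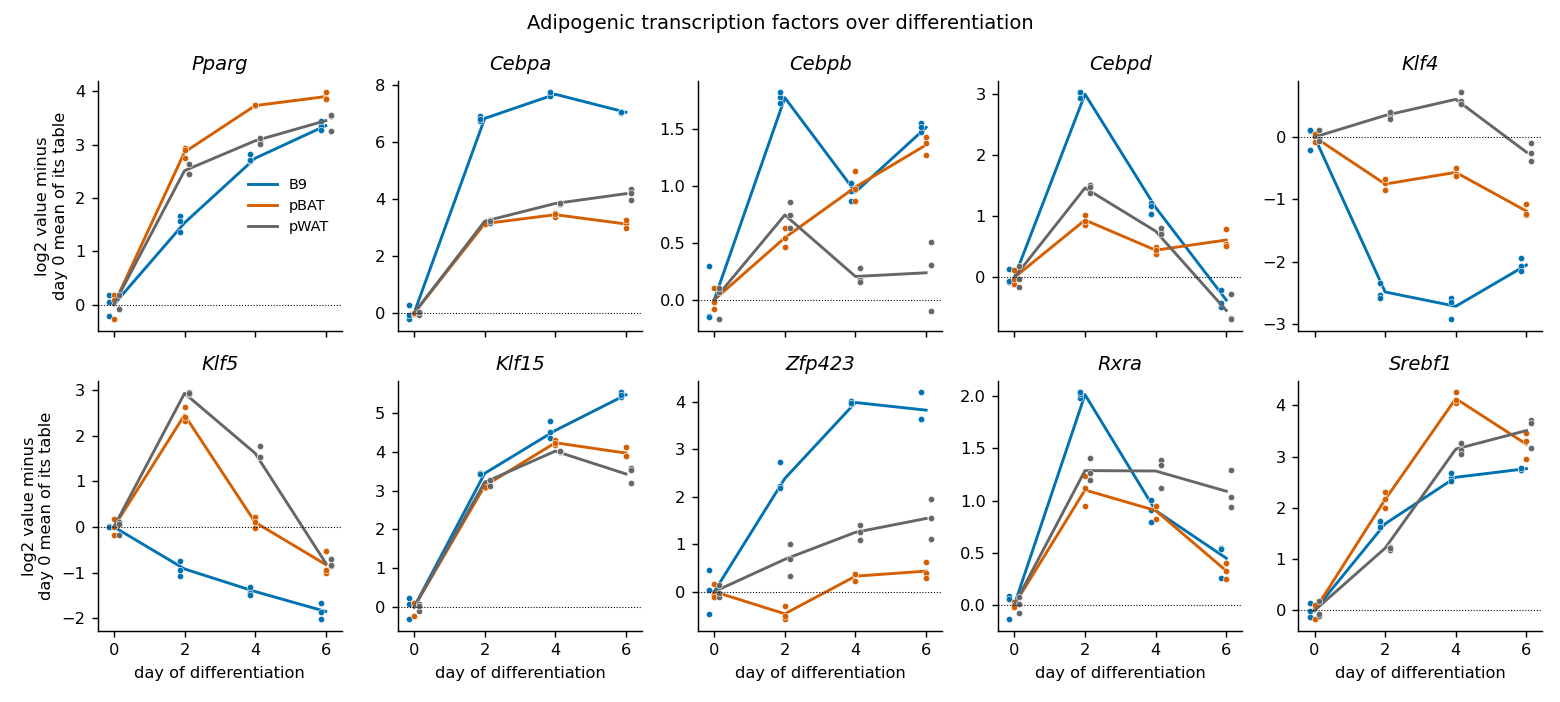
Change of each transcription factor over differentiation, as log2 value minus the day 0 mean of the same table (vertical axis, log2 units, scaled per gene) against day (horizontal axis). Points are single libraries (3 a day and cell type), shifted slightly sideways, and lines join the day means. Pparg, Cebpa, Klf15 and Srebf1 lie above their day 0 values in all 3 cell types from day 2 on, while Klf5 peaks at day 2 in pBAT and pWAT and lies lower on every later day in B9.

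Cebpd, an early activator, had its highest mean at day 2 in all 3 cell types. In B9 the libraries read 9.69, 9.91 and 9.70 at day 0, 12.79, 12.80 and 12.71 at day 2, 10.98, 10.81 and 10.94 at day 4 and 9.28, 9.34 and 9.56 at day 6. The rise to day 2 was 3.00 ± 0.08, adjusted p = 1.84e-13, an 8.02-fold change, and day 6 lay below day 0 (-0.37 ± 0.08, adjusted p = 0.000648). All day 2 libraries lay above all others, and all day 6 libraries below those of day 0. The pWAT libraries went the same way. They read 9.97, 10.19 and 9.84 at day 0, 11.52, 11.49 and 11.39 at day 2, 10.75, 10.71 and 10.82 at day 4 and 9.73, 9.34 and 9.31 at day 6, a rise of 1.47 ± 0.11 (adjusted p = 5.3e-08) followed by falls of 0.71 and 1.30 to a level below day 0 (-0.54 ± 0.11, adjusted p = 0.000587). In pBAT the course was flatter. The libraries read 10.11, 9.89 and 9.97 at day 0, 11.02, 10.85 and 10.92 at day 2, 10.50, 10.37 and 10.44 at day 4 and 10.53, 10.78 and 10.50 at day 6, so that the rise to day 2 was 0.94 ± 0.08, adjusted p = 1.24e-07, and day 6 stayed above day 0 (0.61 ± 0.08, adjusted p = 8.22e-06). In pBAT every library of days 2, 4 and 6 lay above every library of day 0.

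Cebpb, the partner of Cebpd at the start of the cascade, peaked at day 2 in B9 and pWAT and climbed to day 6 in pBAT. The B9 libraries lay at 10.73 to 11.18 at day 0, 12.61 to 12.71 at day 2, 11.75 to 11.91 at day 4 and 12.36 to 12.44 at day 6, and none of the 4 ranges overlapped. The changes from day to day were 1.78, -0.83 and 0.57 (adjusted p = 3.81e-10, 2.72e-06 and 0.00014), a dip at day 4 between 2 higher days. Whether day 6 lay below day 2 in B9 (-0.26 ± 0.09, adjusted p = 0.0213) rested on single libraries, since the adjusted p was 0.066 without day 2 replicate 3 and 0.062 without day 6 replicate 2. In pBAT the ranges were 10.75 to 10.93, 11.29 to 11.46, 11.70 to 11.97 and 12.10 to 12.27, rising at each step by 0.55, 0.45 and 0.37 (adjusted p = 1.73e-05, 0.000137 and 0.00139). In pWAT they were 11.16 to 11.44, 11.97 to 12.20, 11.49 to 11.62 and 11.23 to 11.84. The rise to day 2 in pWAT was 0.75 ± 0.13, adjusted p = 0.000177, and day 6 against day 0 did not pass the test (0.24 ± 0.13, adjusted p = 0.107). Without pWAT day 6 replicate 3, the lowest of its group, that last difference was 0.41 with an adjusted p of 0.00164. Macrophages also express Cebpb and Cebpd, and the macrophage sum went up in pBAT and pWAT over the same days. The part of macrophages in these changes was not tested.

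Klf5, which C/EBPβ and C/EBPδ are known to induce and which acts on the Pparg promoter in mouse cells, fell in B9 and rose in the primary cells from day 0 to day 2. From day 2 on it fell in each cell type. In pBAT the libraries read 6.16, 5.81 and 5.98 at day 0, 8.61, 8.31 and 8.39 at day 2, 5.97, 6.20 and 6.09 at day 4 and 4.97, 5.46 and 5.05 at day 6. The day 2 libraries lay apart from all others, with a rise of 2.45 ± 0.16, adjusted p = 3.91e-09 (5.48-fold) and a fall of 2.35 by day 4 (adjusted p = 9.33e-09). In pWAT they read 6.38, 6.32 and 6.10 at day 0, 9.22, 9.18 and 9.19 at day 2, 8.04, 7.81 and 7.80 at day 4 and 5.42, 5.44 and 5.56 at day 6. The rise was 2.93 ± 0.12, adjusted p = 7.46e-11 (7.61-fold), and day 4 was still above day 0 in every library before day 6 fell below it (-0.79 ± 0.12, adjusted p = 4.76e-05). The B9 libraries read 7.08, 7.10 and 7.09 at day 0, 6.01, 6.16 and 6.35 at day 2, 5.78, 5.64 and 5.60 at day 4 and 5.06, 5.22 and 5.43 at day 6, falling from the start, by 0.92 ± 0.13 to day 2 (adjusted p = 2.35e-05) and by 1.85 ± 0.13 by day 6 (adjusted p = 7.74e-09). No B9 day overlapped another. The last step in B9 (-0.44 ± 0.13, adjusted p = 0.0126) had an adjusted p of 0.0574 without day 6 replicate 2. The difference between cell types was not tested.

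Klf4, which acts with EGR2 (encoded by Egr2) on Cebpb in the first hours of adipogenesis in mouse 3T3-L1 cells, fell by day 2 in both brown models and rose in pWAT. In B9 the libraries read 10.49, 10.78 and 10.80 at day 0, 8.36, 8.16 and 8.11 at day 2, 7.77, 8.12 and 8.05 at day 4 and 8.63, 8.75 and 8.54 at day 6. The fall to day 2 was -2.48 ± 0.11, adjusted p = 9.14e-11, and from day 4 to day 6 there was a rise of 0.66 (adjusted p = 0.000224) that left every library below day 0. In pBAT they read 10.77, 10.86 and 10.89 at day 0, 10.11, 10.17 and 9.99 at day 2, 10.26, 10.35 and 10.22 at day 4 and 9.76, 9.60 and 9.60 at day 6, with falls of 0.75 ± 0.07 to day 2 (adjusted p = 2.94e-07) and 1.19 by day 6 (adjusted p = 7.87e-10). Every later library lay below day 0, and the small rise between days 2 and 4 in pBAT (0.19 ± 0.07, adjusted p = 0.0344) was not called when any of 4 of the 6 libraries was left out (adjusted p from 0.0514 to 0.143 without day 2 replicate 1 or 4 or day 4 replicate 1 or 3). The pWAT libraries read 10.88, 11.03 and 10.85 at day 0, 11.27, 11.21 and 11.32 at day 2, 11.64, 11.49 and 11.45 at day 4 and 10.83, 10.67 and 10.54 at day 6. Here Klf4 rose by 0.35 ± 0.08 to day 2 (adjusted p = 0.00329), lay at its highest at day 4 and fell by 0.85 from day 4 to day 6 (adjusted p = 5.58e-06). The step from day 2 to day 4 (0.26 ± 0.08, adjusted p = 0.021) was lost without day 2 replicate 3 (0.0769) or day 4 replicate 2 (0.1). The lower level at day 6 than at day 0 (-0.24 ± 0.08, adjusted p = 0.0194) was lost without day 0 replicate 2 (0.0905) or day 6 replicate 3 (0.069). The preadipocyte marker sum given above was also lower at day 2 than at day 0 in B9 (13.5 to 13.7) and pBAT (14.5 to 14.6) and higher in pWAT. The single markers were divided in each cell type. Pdgfra rose and Pdgfrb and Thy1 fell in each. Dlk1 and Cd34 rose in pBAT and pWAT, while in B9 Dlk1 fell and Cd34 was not called. Ly6a fell in B9 and pBAT and rose in pWAT. The part of preadipocyte RNA in the course of Klf4 was not tested.

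Pparg, the central regulator of the fat cell, rose at every sampled step except the last of pBAT, which was called in some alternative fits only. The B9 libraries read 8.92, 9.17 and 9.31 at day 0, 10.80, 10.70 and 10.49 at day 2, 11.83, 11.84 and 11.95 at day 4 and 12.48, 12.57 and 12.41 at day 6. No day overlapped another, and the rise by day 6 was 3.35 ± 0.09, adjusted p = 1.72e-13 (10.2-fold). In pBAT they read 9.57, 9.11 and 9.48 at day 0, 12.32, 12.28 and 12.14 at day 2, 13.10, 13.12 and 13.13 at day 4 and 13.25, 13.36 and 13.24 at day 6. The rise was 3.90 ± 0.09, adjusted p = 1.62e-14 (14.9-fold), and the last step of 0.17 did not pass the test (adjusted p = 0.162), although the 3 day 6 libraries lay above those of day 4. It was called when only these 2 days were fitted (0.17, adjusted p = 0.0375) and after quantile normalization (0.30, adjusted p = 0.0196). The pWAT libraries read 9.03, 9.03 and 9.30 at day 0, 11.76, 11.57 and 11.56 at day 2, 12.19, 12.13 and 12.25 at day 4 and 12.65, 12.68 and 12.37 at day 6. Every later day lay above the earlier one in all libraries, and the rise by day 6 was 3.45 ± 0.10, adjusted p = 4.31e-13 (10.9-fold).

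Rxra, the partner of PPARγ, rose first and then receded in the brown cells. In B9 it lay at 11.07 to 11.30 at day 0, 13.20 to 13.25 at day 2, 12.01 to 12.21 at day 4 and 11.47 to 11.76 at day 6. The rise to day 2 was 2.02 ± 0.08, adjusted p = 1.96e-11, of which 0.45 was left at day 6 (adjusted p = 0.000147). Day 2 libraries lay above all others in B9. In pBAT the ranges were 11.25 to 11.30, 12.22 to 12.52, 12.10 to 12.22 and 11.52 to 11.68, a rise of 1.10 ± 0.07, adjusted p = 3.46e-09 and a level at day 6 still 0.33 above day 0 (adjusted p = 0.000779). The fall from day 2 to day 4 in pBAT (-0.20 ± 0.07, adjusted p = 0.0264) was lost without day 2 replicate 1 (-0.13, adjusted p = 0.129), without day 2 replicate 3 (0.0686) or without day 4 replicate 1 (0.1). In pWAT the ranges were 10.66 to 10.81, 11.94 to 12.15, 11.86 to 12.13 and 11.68 to 12.03. The rise of 1.29 ± 0.10, adjusted p = 4.96e-08 was followed by no called step, and without day 6 replicate 2 the last one was -0.29 with an adjusted p of 0.0337. The ranges of days 2, 4 and 6 overlapped in pWAT, so their order is not resolved.

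Cebpa, which maintains the differentiated state together with Pparg, had the largest rise of the members by day 2 in B9, and rose about as much as Klf15 (3.12 and 3.21) in pBAT and pWAT. In B9 the libraries read 6.10, 6.25 and 6.60 at day 0, 13.08, 13.24 and 13.15 at day 2, 14.02, 13.93 and 14.08 at day 4 and 13.36, 13.37 and 13.40 at day 6. Between days 0 and 2 it rose by 6.84 ± 0.09, adjusted p = 3.45e-16, a 115-fold change and rank 10 by size among the 12462 genes tested. All later libraries lay at 13.08 or above and all day 0 libraries at 6.60 or below, day 4 lay highest, and day 6 fell by 0.63 from it (adjusted p = 6.6e-05). In pBAT the libraries read 11.26, 11.30 and 11.31 at day 0, 14.43, 14.45 and 14.43 at day 2, 14.82, 14.67 and 14.76 at day 4 and 14.45, 14.27 and 14.56 at day 6. The rise to day 2 was 3.15 ± 0.07, adjusted p = 1.08e-14 (8.86-fold). All later libraries lay between 14.27 and 14.82, with a step of 0.31 to day 4 (adjusted p = 0.000864) that was 0.02 after quantile normalization (adjusted p = 0.804) and a fall of 0.33 to day 6 (adjusted p = 0.00129). The pWAT libraries read 10.21, 10.12 and 10.23 at day 0, 13.47, 13.34 and 13.43 at day 2, 14.02, 14.04 and 14.06 at day 4 and 14.56, 14.41 and 14.18 at day 6. There Cebpa rose at every step, by 3.23, 0.62 and 0.34 (adjusted p = 4.91e-13, 2.43e-05 and 0.00605), and no day overlapped another.

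Klf15, a later factor that is also a direct target of the glucocorticoid receptor, rose to day 2 and on to day 4 in each cell type, as did Cebpa. From day 4 to day 6 Klf15 and Cebpa went in opposite directions in B9 and in pWAT. In B9 it lay at 4.83 to 5.37 at day 0, 8.57 to 8.60 at day 2, 9.49 to 9.93 at day 4 and 10.56 to 10.67 at day 6. The rise by day 6 was 5.47 ± 0.13, adjusted p = 4.01e-14 (44.2-fold), with each day above the one before it. In pBAT the ranges were 6.69 to 7.04, 9.98 to 10.12, 11.08 to 11.23 and 10.80 to 11.04, and the rise by day 6 was 3.96 ± 0.10, adjusted p = 1.95e-14. Its decline after day 4 in pBAT (-0.27 ± 0.10, adjusted p = 0.04) was lost when any 1 of 5 of the 6 libraries was left out (adjusted p from 0.0511 to 0.128, all but day 6 replicate 4). In pWAT the ranges were 6.97 to 7.14, 10.18 to 10.35, 11.06 to 11.09 and 10.25 to 10.65, with a rise of 3.43 ± 0.10, adjusted p = 5.63e-13 by day 6 and a fall from day 4 to day 6 of 0.59 (adjusted p = 0.000565).

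Srebf1, which encodes the SREBP-1 activators of fatty acid synthesis genes, rose by day 2 in each cell type and went on rising to day 4. The B9 libraries read 11.12, 11.24 and 11.40 at day 0, 12.96, 12.99 and 12.87 at day 2, 13.84, 13.77 and 13.93 at day 4 and 14.03, 13.99 and 14.03 at day 6. The rise to day 2 was 1.69 ± 0.06, adjusted p = 1.01e-11 and that by day 6 2.77 ± 0.06, adjusted p = 2.3e-14, with no overlap between days. The last B9 step (0.17 ± 0.06, adjusted p = 0.0392) had adjusted p-values from 0.0593 to 0.145 without any 1 of 5 of the 6 libraries, all but day 4 replicate 4. In pBAT they read 11.21, 10.98 and 11.26 at day 0, 13.47, 13.32 and 13.15 at day 2, 15.19, 15.26 and 15.40 at day 4 and 14.61, 14.10 and 14.46 at day 6. Day 4 lay above all other days, 1.97 above day 2 (adjusted p = 2.12e-09), and day 6 fell by 0.89 ± 0.12 from it (adjusted p = 3.61e-05). The pWAT libraries read 11.27, 11.55 and 11.29 at day 0, 12.61, 12.56 and 12.59 at day 2, 14.63, 14.50 and 14.42 at day 4 and 15.08, 15.02 and 14.53 at day 6. The rise was 1.22 ± 0.12, adjusted p = 9.82e-07 to day 2 and 1.93 ± 0.12, adjusted p = 1.45e-08 from day 2 to day 4, the larger of the 2 steps. From day 4 to day 6 the ranges overlapped in pWAT, and the step of 0.36 (adjusted p = 0.0352) was lost without day 4 replicate 3 or 4 or day 6 replicate 1 or 2 (adjusted p from 0.0887 to 0.135).

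Zfp423, the commitment factor, took a different course in each cell type. In B9 the libraries read 5.15, 4.73 and 4.23 at day 0, 7.43, 6.93 and 6.90 at day 2, 8.66, 8.72 and 8.67 at day 4 and 8.90, 8.34 and 8.33 at day 6. The rise was 2.38 ± 0.22, adjusted p = 2.07e-07 to day 2 and 3.82 ± 0.22, adjusted p = 5.62e-10 by day 6 (14.1-fold), and the last 2 days overlapped. In pBAT they read 8.57, 8.80 and 8.52 at day 0, 8.04, 8.11 and 8.34 at day 2, 9.01, 8.85 and 9.00 at day 4 and 9.02, 8.91 and 9.25 at day 6. It first fell by 0.47 ± 0.11 (adjusted p = 0.00235), then rose by 0.79 (adjusted p = 2.68e-05) and stood 0.43 above day 0 at day 6 (adjusted p = 0.00317). All pBAT day 2 libraries lay below day 0 and all those of days 4 and 6 above it. The pWAT libraries read 7.30, 7.05 and 7.12 at day 0, 7.50, 7.85 and 8.17 at day 2, 8.40, 8.25 and 8.56 at day 4 and 9.10, 8.72 and 8.27 at day 6. The rise by day 6 was 1.54 ± 0.20, adjusted p = 6.86e-06, with day 6 libraries spread from 8.27 to 9.10. Its day 2 part (0.68 ± 0.20, adjusted p = 0.0102) was lost without day 2 replicate 4 (0.0555), and the step to day 4 (0.57 ± 0.20, adjusted p = 0.0295) without day 2 replicate 2 or 3 or day 4 replicate 2 or 4 (adjusted p from 0.0617 to 0.138).

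**Figure D2:**
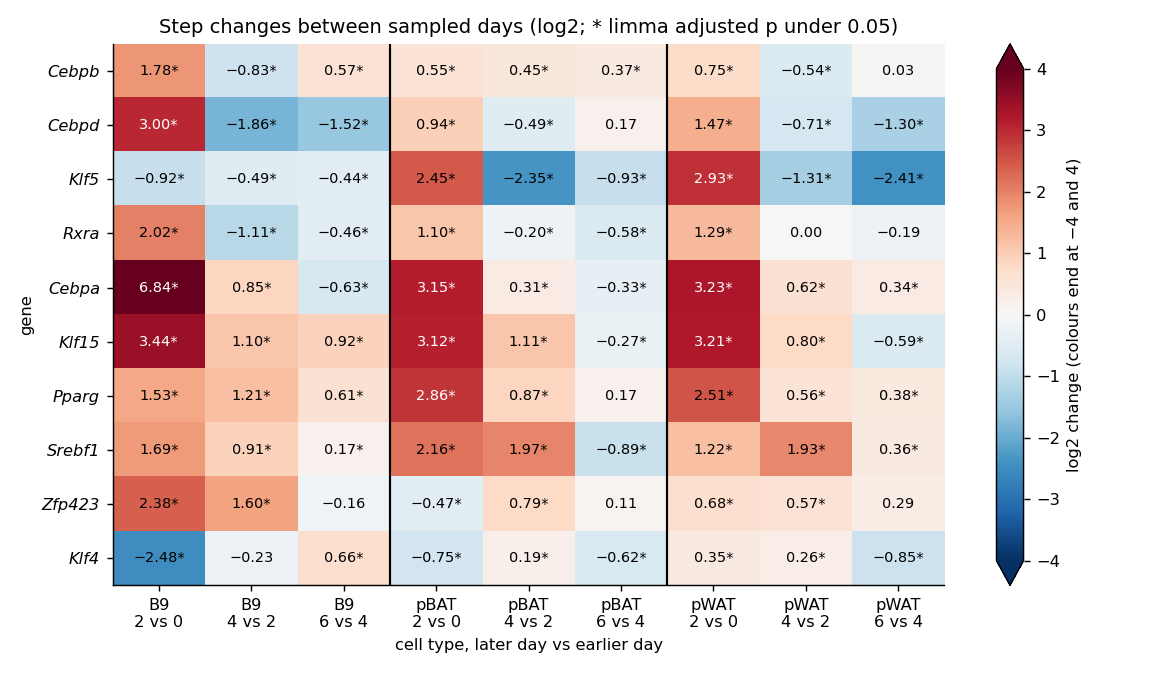
Log2 change between neighbouring sampled days (columns, grouped by cell type) for each transcription factor (rows), with the value printed in each cell and a star where the limma adjusted p was under 0.05. Red is a rise and blue a fall, and colours end at 4 units, which the 6.84 of Cebpa in B9 exceeds. Cebpd, Rxra and Cebpa rise in the day 2 column of all 3 cell types, Klf5 turns from red to blue after day 2 in pBAT and pWAT, and Klf4 is blue at day 2 in B9 and pBAT only.

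The order of induction was read from the share of the day 0 to day 6 change, on the log2 scale, that had been reached at day 2. It was compared among Pparg, Cebpa, Klf15, Srebf1 and Zfp423, which ended higher in all 3 cell types with their highest mean at day 4 or 6, and not for members that peaked early or fell. In B9 it was 96.9% for Cebpa, 63.0% for Klf15, 62.4% for Zfp423, 61.1% for Srebf1 and 45.7% for Pparg. Leaving out 1 library at a time moved these shares to 96.3 to 97.5% for Cebpa and to 43.7 to 48.2% for Pparg. Such ranges show how far 1 library moves a share and are not confidence intervals. The differences between shares were not tested, so the order of close shares is not established. The ranges of Klf15 (61.9 to 63.8%), Zfp423 (57.8 to 65.6%) and Srebf1 (60.2 to 62.4%) overlapped, so these 3 are not ordered. Among these 5, Cebpa came first and Pparg last in B9. In pBAT the shares from high to low were Cebpa (100.4%), Klf15 (78.7%), Pparg (73.3%) and Srebf1 (66.8%). The leave-one-out ranges of these 4 did not overlap, the closest being Klf15 at 77.6 to 80.3% and Pparg at 72.3 to 74.7%. Zfp423, which fell to day 2 in pBAT, has no such share there. In pWAT Klf15 came first (93.7%), then Cebpa (77.0%), Pparg (72.8%), Zfp423 (44.2%) and Srebf1 (34.6%). Zfp423 ranged from 33.5 to 55.4% there and overlapped Srebf1 (33.0 to 36.2%). By day 4 Srebf1 in pWAT had reached 89.7% of its change, close to Pparg at 89.0%. Cebpa had the larger share than Pparg in each of the 3 cell types. It kept it when the highest day mean took the place of day 6, a choice made after seeing the data, at 89.0% in B9, 90.9% in pBAT and 77.0% in pWAT. Klf15 also had the larger share in each, but in pBAT only against day 6, which lay below its day 4 mean. Against the highest mean it stood at 73.8% there (72.8 to 74.5% with 1 library left out), within the range of Pparg, and Srebf1 in pBAT stood at 52.4%. A share on this scale depends on the day 0 level, which the scale holds up where it is low. In B9 this applies to Zfp423 (4.23 to 5.15), Klf15 (4.83 to 5.37) and Cebpa (6.10 to 6.60). With samples 2 days apart, the order within the first 2 days is not resolved.

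**Figure D3:**
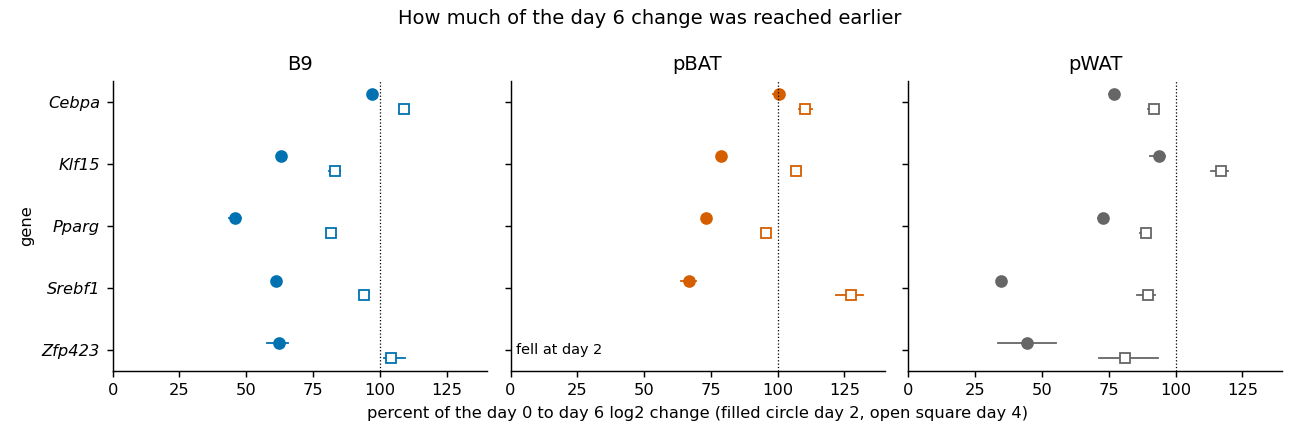
Share of the log2 change from day 0 to day 6 (horizontal axis, percent) reached by day 2 (filled circles) and day 4 (open squares) for 5 factors that ended higher in all 3 cell types and had their highest mean at day 4 or 6. Lines span the values with 1 library left out at a time and are not confidence intervals. Cebpa and Klf15 lie to the right of Pparg at day 2 in every panel, and Srebf1 at day 2 lies at 34.6% in pWAT against 66.8% in pBAT.

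At day 6, 7 members stood above day 0 and 3 below it in B9 (79.2% of all genes called, 40.5% higher and 38.8% lower). In pBAT 8 stood above and 2 below (77.5% of all genes called, 38.3% higher and 39.2% lower), and in pWAT 6 above and 3 below (70.8% of all genes called, 35.3% higher and 35.5% lower). Pparg, Cebpa, Klf15, Srebf1, Zfp423 and Rxra were higher in all 3 cell types. Klf4 and Klf5 were lower in all 3, that of Klf4 in pWAT with the limits given above. Cebpd stood lower in B9 and pWAT and higher in pBAT. Between day 2 and day 6, 9 of the 10 members were called in B9 (70.2% of all genes called), 9 in pBAT (71.9%) and 8 in pWAT (60.7%).

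Genes that the master regulators are known to act on rose with them. Of 14 PPARγ target genes, 14 rose by day 6 in B9 and in pBAT, with median changes of 7.64 and 6.26. In pWAT 13 rose and Pck1, which encodes the enzyme that supplies glycerol 3-phosphate, fell by 0.66, and the median was 6.58. Adipoq, Fabp4, Plin1, Cidec and Lipe of this list are also among the adipocyte markers given above, so the 2 lists are not independent. The smallest adjusted p-values belonged in B9 to Lpl (4.30), Fabp4 (7.77), Lipe (7.51) and Plin1 (9.79), which encode lipoprotein lipase, a fatty acid carrier, hormone-sensitive lipase and perilipin. Over all genes the median change by day 6 was 0.03 in B9, -0.00469 in pBAT and 0.00367 in pWAT. The shares of all genes called higher were 40.5%, 38.3% and 35.3%. Of 8 SREBP-1 target genes, 7 rose and 1 fell in B9 by day 6 (median 1.82), 8 rose in pBAT (4.28) and 8 in pWAT (5.23). Thrsp, a lipogenic nuclear protein, had the smallest adjusted p in each, with changes of 7.76, 9.27 and 9.87. At day 2, 3 of the 8 were lower in pWAT, Acly, Elovl6 and Me1 by 0.25, 0.63 and 0.43, and all 8 rose from day 2 to day 4, the step in which Srebf1 rose most. Of all genes in pWAT, 25.5% were lower at day 2 and 25.1% rose from day 2 to day 4. From day 4 to day 6 in pBAT, where Srebf1 fell, 6 of the 8 fell and none rose (23.2% of all genes lower).

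Relatives of the members moved in both directions. Of 11 other KLF genes tested in B9, 3 rose and 7 fell by day 2, and in pBAT 2 rose and 9 fell. In pWAT 3 of 10 rose and 4 fell. Over all genes at day 2, B9 had 35.1% higher and 34.0% lower, pBAT 36.7% and 29.7%, and pWAT 27.1% and 25.5%. Klf9 rose in all 3 by day 6, by 2.08, 2.99 and 2.46, and so did Klf13, by 1.75, 2.36 and 2.10. Klf2, an inhibitor of Pparg in mouse preadipocytes, fell at day 2 by 2.00, 2.53 and 0.73. Among 3 further C/EBP family genes, Ddit3, which encodes the C/EBP inhibitor CHOP, fell at day 2 in all 3 cell types, by 0.78, 1.57 and 0.72. It then stood above day 0 at day 6 in B9 (2.38) and pBAT (1.51). All 6 further receptors of the PPAR, RXR and LXR group rose by day 6 in B9 and in pBAT, and 5 in pWAT. Of all genes 40.5%, 38.3% and 35.3% were called higher there. Nr1h3, which encodes the sterol sensor LXRα that acts on Srebf1, rose by 5.77, 4.14 and 5.03. Rxrg, another partner of PPARγ, rose by 4.58, 3.21 and 3.17 by day 6. From day 2 to day 6, over which Rxra stepped down in B9 and pBAT and had no called step in pWAT, Rxrg rose by 3.72, 2.65 and 2.33.

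Factors upstream of Pparg and its coregulators were mixed. Of 10 early activators, 3 rose and 4 fell in B9 at day 2, 4 and 4 in pBAT, and 4 and 3 in pWAT. Over all genes at day 2, B9 had 35.1% higher and 34.0% lower, pBAT 36.7% and 29.7%, and pWAT 27.1% and 25.5%. Zbtb16, a zinc finger gene that glucocorticoids induce, rose by 5.53, 5.80 and 5.80. Stat5a, a signal transducer of growth hormone and prolactin, rose by 1.18, 1.23 and 0.82. Of 12 coregulators, 6 rose and 3 fell by day 6 in B9, 6 and 3 in pBAT, and 4 and 3 in pWAT. By day 6, 40.5% of all genes were higher and 38.8% lower in B9, 38.3% and 39.2% in pBAT, and 35.3% and 35.5% in pWAT. Counts in short lists near such shares say little about the lists. Ppargc1a and Ppargc1b, coactivators of mitochondrial genes, rose in all 3, by 4.69, 4.08 and 3.62 and by 4.58, 4.89 and 2.50. Of the known inhibitors of adipogenesis, 9 of 11 tested fell by day 6 in B9, 6 of 9 in pBAT and 6 of 10 in pWAT. Gata2, which represses Pparg in mouse preadipocytes, fell by 3.25, 2.63 and 2.62. Foxo1 rose by 2.42, 2.69 and 2.62, although it was on that list. Of the lipogenic regulators, 5 of 8 rose in B9 and in pBAT and 4 in pWAT by day 6, with Mlxipl, the carbohydrate-responsive factor ChREBP, up by 5.25, 6.51 and 6.72. Of 7 brown lineage regulators, 5 rose and 2 fell in B9 by day 6, 4 rose and 3 fell in pBAT, and 4 rose and 1 fell in pWAT, where 40.5%, 38.3% and 35.3% of all genes were called higher. Ebf2, which marks brown preadipocytes, rose by 1.17, 1.16 and 0.68, and Nfix fell by 0.90, 0.93 and 0.41.

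Genes whose courses were most like those of the members were found by Pearson correlation over the 36 libraries of experiment 1, after each gene was centred on its mean in its own table, among 11943 genes. These libraries share their days and cultures, and the values are descriptive. The nearest gene was N4bp2l1 for Pparg (r = 0.983), Nrip1 for Cebpa (0.983), Reep6 for Klf15 (0.984) and Slc25a44 for Srebf1 (0.987). It was Cyp2d22 for Cebpb (0.953), Thap11 for Cebpd (0.917), Rasa3 for Rxra (0.960) and Lrp2 for Klf5 (0.917). For Klf4 it was Masp1 (0.922), and for Zfp423 Trarg1 (0.923). Among the members, Pparg and Klf15 were the most alike pair (0.965), then Pparg and Srebf1 (0.942) and Cebpa and Klf15 (0.930). Klf4 went against Cebpa (-0.795). Cebpd was most like Rxra (0.765). Its correlation with Pparg was low (0.0771), although both rose to day 2 in each cell type.

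When heme synthesis was inhibited with SA in pBAT cells, the early C/EBP factors were lower while Cebpa and Srebf1 were higher and Pparg did not pass the test. SA against Vehicle called 2 of the 10 members higher and 2 lower (41.4% of all genes called, 20.0% higher and 21.4% lower). HA against Vehicle called 1 higher and 2 lower (8.97% of all genes called, 4.88% higher and 4.09% lower), and HASA against Vehicle 3 higher and 4 lower (43.9% of all genes called, 20.9% higher and 23.0% lower). The comparisons share their Vehicle, SA or HA libraries, and each is given by its own values. Values follow in the order of replicates 1 to 4.

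Cebpb read 11.68, 11.57, 11.43 and 11.37 in Vehicle, 10.81, 10.71, 10.64 and 10.68 in SA, 11.39, 11.32, 11.28 and 11.46 in HA and 10.67, 10.91, 10.92 and 10.92 in HASA. It fell with SA by 0.80 ± 0.07 (adjusted p = 3.54e-08), and with both agents by 0.66 ± 0.07 (adjusted p = 3.49e-07). All 8 libraries with SA lay below all 8 without it. Cebpd read 10.20, 10.27, 10.13 and 9.88 in Vehicle, 9.46, 9.78, 9.52 and 9.53 in SA, 10.23, 10.15, 9.99 and 10.07 in HA and 9.68, 9.84, 9.51 and 9.51 in HASA, and the libraries with SA were again the lower 8. The changes were -0.55 ± 0.09, adjusted p = 9.9e-05 with SA and -0.48 ± 0.09, adjusted p = 0.000271 with both. Adding HA to SA did not return either gene in a called way, with HASA minus SA at 0.15 ± 0.07, adjusted p = 0.119 for Cebpb and 0.06 ± 0.09, adjusted p = 0.668 for Cebpd. For Cebpb that difference was 0.21 (adjusted p = 0.0247) without HASA replicate 1, the lowest of its group. The interaction of SA and HA for Cebpb was 0.30 ± 0.09, adjusted p = 0.0644, and it was called without HASA replicate 1 (0.36, adjusted p = 0.0181). It was also called when SA replicate 1 (0.33, adjusted p = 0.0463) or, in Vehicle, replicate 4 (0.34, adjusted p = 0.0327) was the library left out. Other cells' markers moved beside these falls. Of all genes, 20.0% were higher and 21.4% lower with SA, and 20.9% and 23.0% with both agents. With SA 5 of 8 macrophage markers and 6 of 6 preadipocyte markers were lower, and the macrophage sum was 12.2 to 12.3 against 12.4 to 12.6 in Vehicle. The macrophage marker Lyz2 was higher with SA (0.23), and Csf1r and Ptprc were not called. Of the smooth muscle markers Acta2 (-0.82), Tagln (-0.93) and Cnn1 (-0.19) were lower with SA, and Myh11 was not called. With both agents 4 macrophage markers were higher and 2 lower (sum 13.0 to 13.2), with Lyz2 at 1.38 and Mrc1 at -0.48, and 1 preadipocyte marker was higher and 4 lower. The part of these cells in the falls of Cebpb and Cebpd was not tested.

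Cebpa read 13.64, 13.55, 13.52 and 13.50 in Vehicle, 13.93, 13.83, 13.76 and 13.84 in SA, 13.39, 13.28, 13.25 and 13.36 in HA and 13.88, 13.90, 13.98 and 13.88 in HASA. It rose with SA (0.29 ± 0.04, adjusted p = 3.86e-05), fell with HA (-0.23 ± 0.04, adjusted p = 0.00244) and rose with both (0.36 ± 0.04, adjusted p = 2.74e-06). No group overlapped Vehicle. The response to HA depended on SA. The interaction, the HASA minus SA difference less the HA minus Vehicle one, was 0.30 ± 0.06, adjusted p = 0.00524, in a test that called 2 of the 10 members, both higher (7.67% of all genes called, 3.88% higher and 3.79% lower). HASA minus SA itself was 0.07 ± 0.04, adjusted p = 0.25, in a comparison that called 2 members higher and 2 lower (24.7% of all genes called, 12.4% higher and 12.3% lower). The log2 sum of 6 adipocyte markers was 17.19 to 17.27 in Vehicle, 17.30 to 17.39 in SA, 17.18 to 17.36 in HA and 17.48 to 17.58 in HASA. With SA Adipoq, Plin1, Cidec, Lipe and Cfd were higher and Fabp4 was not called. All of them were higher with both agents, and with HA only Cfd was called, as lower. The part of adipocyte RNA in the changes of Cebpa, and of Srebf1 below, was not tested.

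Srebf1 read 13.60, 13.53, 13.64 and 13.58 in Vehicle, 14.35, 14.14, 14.16 and 14.23 in SA, 13.96, 13.85, 13.92 and 13.93 in HA and 14.36, 14.45, 14.52 and 14.47 in HASA. The 4 groups did not overlap and were ordered Vehicle, HA, SA and HASA. It rose by 0.63 ± 0.04, adjusted p = 4.91e-09 with SA, by 0.33 ± 0.04, adjusted p = 0.000151 with HA and by 0.86 ± 0.04, adjusted p = 5.34e-11 with both (1.82-fold). The interaction was -0.10 ± 0.06, adjusted p = 0.391. The 8 SREBP-1 target genes did not follow in one direction, with 3 higher and 4 lower in SA (median -0.14, against 0.00363 over all genes). Of all genes, 20.0% were higher with SA and 21.4% lower. Pnpla3 fell by 1.26 and Elovl6 by 1.01, while Me1 rose by 0.57 and Acaca by 0.46.

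Pparg read 12.96, 13.00, 12.88 and 12.97 in Vehicle, 12.91, 12.92, 13.00 and 12.91 in SA, 12.79, 12.83, 12.71 and 12.84 in HA and 12.71, 12.69, 12.73 and 12.62 in HASA. The SA and Vehicle ranges overlapped, and the difference was -0.02 ± 0.04, adjusted p = 0.742 with a 95% interval of -0.10 to 0.06. It was lower with HA (-0.16 ± 0.04, adjusted p = 0.0136) and with both (-0.26 ± 0.04, adjusted p = 1.95e-05), and every HA and HASA library lay below every Vehicle and SA library. HASA against HA called 3 members higher and 3 lower (42.7% of all genes called, 20.4% higher and 22.4% lower). For Pparg the difference between HASA and HA (-0.11 ± 0.04, adjusted p = 0.0325) was lost without HA replicate 1, 2 or 4 or HASA replicate 2 or 4 (adjusted p from 0.0565 to 0.113). Of the 14 PPARγ target genes, 8 were higher and 3 lower with SA (median 0.16), against 20.0% and 21.4% of all genes. Pck1 fell by 3.11 and Gpd1 by 0.68, and Lipe rose by 0.81 and Cidec by 0.57. All 5 brown adipocyte markers were lower with SA, with Ucp1 at 5.75 to 5.81 against 7.48 to 7.99 in Vehicle.

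Klf4 read 9.02, 9.04, 8.96 and 8.78 in Vehicle, 8.74, 8.88, 8.78 and 8.85 in SA, 9.02, 9.10, 8.94 and 9.08 in HA and 9.24, 9.41, 9.31 and 9.31 in HASA. It was higher in HASA than in Vehicle (0.37 ± 0.06, adjusted p = 5.09e-05) and than in SA (0.50 ± 0.06, adjusted p = 9.47e-06), and the HASA libraries lay above all others. Neither agent alone gave a called change, at -0.13 ± 0.06, adjusted p = 0.0735 for SA and 0.09 ± 0.06, adjusted p = 0.39 for HA. Without Vehicle replicate 4, its lowest library, the SA difference was -0.19 with an adjusted p of 0.00895. The interaction was 0.41 ± 0.08, adjusted p = 0.0047. Klf15 read 10.63, 10.70, 10.59 and 10.40 in Vehicle, 10.46, 10.67, 10.59 and 10.54 in SA, 10.44, 10.35, 10.31 and 10.46 in HA and 10.37, 10.48, 10.20 and 10.17 in HASA, and was lower in HASA than in Vehicle (-0.27 ± 0.07, adjusted p = 0.00426) with ranges that overlapped. For HA against Vehicle Klf15 gave -0.19 ± 0.07, adjusted p = 0.106, and -0.25 with an adjusted p of 0.0303 without Vehicle replicate 4.

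The other 3 members gave no called change in the fit of all libraries. Rxra was called between HASA and HA without HA replicate 4 (0.12, adjusted p = 0.0425) and after quantile normalization (0.13, adjusted p = 0.0205). Klf5 lay between 5.00 and 5.21 in all 16 libraries. Rxra lay between 11.08 and 11.34, and its SA minus Vehicle difference was 0.04 with a 95% interval of -0.05 to 0.13. Zfp423 lay between 7.33 and 8.19, with an SA difference of 0.16 and a wider interval of -0.18 to 0.49. Among their relatives, 8 of 10 other KLF genes were higher with SA and none was lower, led by Klf10 (0.59) and Klf2 (0.65). Of all genes, 20.0% were higher with SA and 21.4% lower. Of the other receptors Ppard, which drives fatty acid oxidation genes, was higher by 0.87, and Rxrg and Ppara were lower by 0.42 and 0.46.

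**Figure D4:**
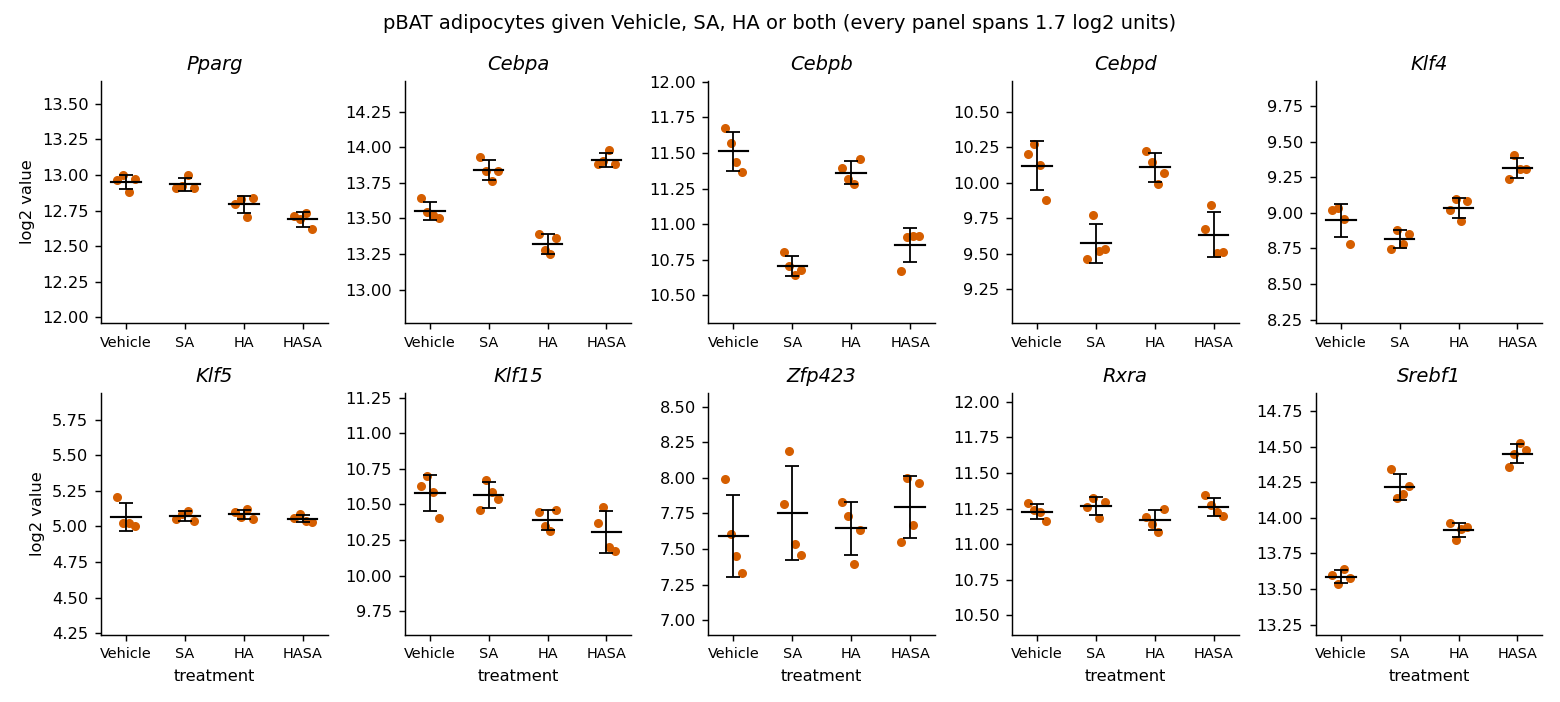
Log2 values (vertical axis, each panel spanning 1.7 units) of the 10 transcription factors in pBAT cells differentiated with Vehicle, SA, HA or both (horizontal axis). Points are the 4 libraries of a group in the order of their replicate numbers, horizontal bars the means and error bars 1 SD. Cebpb and Cebpd are lower in both groups with SA, Srebf1 rises from Vehicle over HA and SA to HASA, and Klf5, Rxra and Zfp423 overlap between groups.

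In brown adipose tissue the loss of Alas1 in brown adipocytes was visible in the targeted gene and in none of the members. Alas1 read 12.8, 12.9, 12.7 and 13.0 in the WT libraries (replicates 1, 3, 4 and 5) and 10.1, 10.2, 10.4 and 10.6 in the BAKO libraries (replicates 1, 2, 3 and 5), so that every BAKO library lay below every WT library. Of the 9 members that passed the filter on low values, limma called 0 between BAKO and WT, and 0 had an unadjusted p under 0.05. Klf5, at 3.22 to 3.51 in all 8 libraries, was below the filter. Over all genes 15 of 13497 were called (0.111% of all genes called, 0.0519% higher and 0.0593% lower), and leaving out BAKO replicate 1, BAKO replicate 3, WT replicate 1, WT replicate 3 or WT replicate 4 left 1. The smallest unadjusted p among the members was 0.0558, for Rxra.

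Pparg read 12.09, 12.41, 12.23 and 12.39 in WT and 12.17, 12.57, 12.56 and 12.10 in BAKO. The ranges overlapped, and the difference was 0.07 ± 0.13, adjusted p = 0.916 with a 95% interval of -0.22 to 0.36. Cebpa read 14.59, 14.40, 14.27 and 14.32 in WT and 14.17, 14.52, 14.00 and 13.71 in BAKO, a difference of -0.29 ± 0.16, adjusted p = 0.651 (95% interval -0.65 to 0.06) in which 3 of the 4 BAKO libraries lay below every WT library. Cebpb read 12.83, 12.18, 12.67 and 12.47 in WT and 12.18, 12.46, 12.19 and 12.81 in BAKO, with a difference of -0.12 ± 0.17, adjusted p = 0.879 and an interval of -0.50 to 0.25. Cebpd read 7.81, 8.39, 8.03 and 8.02 in WT and 8.03, 8.19, 9.00 and 8.49 in BAKO, a difference of 0.36 ± 0.20, adjusted p = 0.663, and its highest BAKO library was replicate 3. Srebf1 differed by -0.18 ± 0.11, adjusted p = 0.696 (interval -0.43 to 0.08) and Rxra by -0.25 ± 0.12, adjusted p = 0.584 (-0.51 to 0.01). For Klf4, Klf15 and Zfp423 the differences were 0.18, -0.06 and -0.07, with standard errors of 0.27, 0.12 and 0.12. That of Klf4 changed sign without BAKO replicates 3 and 5.

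The tissue libraries differ in marker RNA. The log2 sum of 6 adipocyte markers was 17.68 to 17.95 in BAKO and 18.05 to 18.25 in WT, with every BAKO library below every WT library and 0 of the 6 markers called, beside the lower values of Cebpa, Rxra and Srebf1. Its part in them was not tested. The log2 sum of 7 skeletal muscle markers was 16.7 in BAKO replicate 3, 12.4 in WT replicate 4 and 10.3 in BAKO replicate 5, and 8.30 to 8.66 in the other 5. Without BAKO replicates 3 and 5, a choice made after seeing the data, no member was called either, and the difference of Cebpd was 0.05 and that of Cebpa -0.05, against 0.36 and -0.29 with all libraries. Rxra was -0.28 without them (adjusted p = 0.435). With WT replicate 4 left out as well, so that all 3 libraries with a muscle sum over 10 were gone, 0 members were called. The differences were then 0.04 for Cebpd, -0.09 for Cebpa and -0.26 for Rxra. Among the members only Klf4 changed sign, to -0.23 without BAKO replicates 3 and 5 and -0.25 without all 3 libraries. Zfp423 gave -0.17 and -0.24 in these fits. Of the lists, 0 of 14 PPARγ target genes and 0 of 8 SREBP-1 target genes were called between BAKO and WT, with median differences of -0.26 and -0.44 against 0.00117 over all genes.

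**Figure D5:**
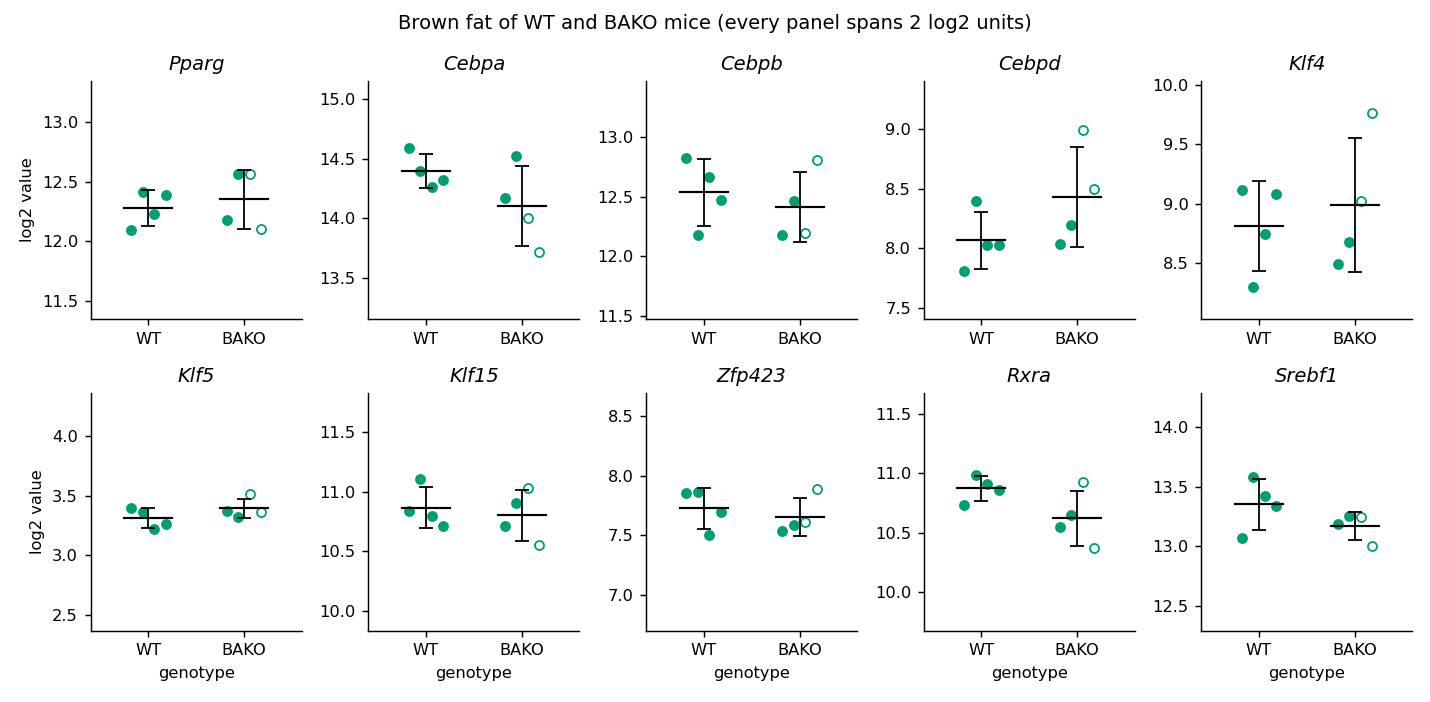
Log2 values (vertical axis, each panel spanning 2 units) of the 10 transcription factors in brown adipose tissue of WT and BAKO mice (horizontal axis). Points are single animals (4 a genotype), with BAKO replicates 3 and 5 as open circles, horizontal bars are means and error bars 1 SD. The genotypes overlap in every panel, and the BAKO values of Klf4 and Cebpd are highest in open circles.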

How the data were processed

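RNA of 60 libraries was measured in 5 tables, one for each cell type of the time course, one for the treatments and one for the tissue. The deposited values are on a log2 scale per Ensembl gene. The base was read from the values, none of which is whole, and the sources used here do not give the transformation. Per the submitters' processing notes, kallisto and DESeq2 were among the tools and GRCm39 was the build, with no versions or roles listed. Because these are not counts, no count test was run and no counting interval can be given. Genes with low values hardly vary on this scale, which understates their changes.

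Symbols came from an annotation table that matched 99.63 to 99.77% of identifiers, and all 60 columns were mapped to samples. Genes whose highest group mean was at least 4 were tested in each table with limma 3.58.1 (R 4.3.3), with group means, a mean-variance trend and Benjamini-Hochberg adjustment over all genes tested, in 22 comparisons. The model was tested on simulated data. Alternatives changed the filter, the libraries fitted, the trend, the scaling and the replicate block, and left out each library in turn. Sequences came from RefSeq (GRCm38.p6), another build than that of the tables, and were matched by symbol. The members and gene lists were chosen with earlier results of these data known. The text names all 10 members, and, from each list, at most 4 genes ranked by adjusted p in the comparison at hand, with their values in the other cell types, and the gene most correlated with each member.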

Additional observations from a re-analysis of the deposited data

Results flagged for a closer look

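In 3 of the 60 groups of 4 libraries tested, 1 library lay apart from the other 3 by more than Dixon's 95% critical value, where chance gives about 5%. Cebpb read 10.67 in HASA replicate 1, against 10.91 to 10.92 in the others. Klf5 read 5.21 in Vehicle replicate 1, against 5.00 to 5.03. Pparg read 13.0 in SA replicate 3, against 12.91 to 12.92.

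The response to HA differed between cells with and without SA for Cebpa, by 0.30 on the log2 scale, and for Klf4, by 0.41, by the interaction in limma (adjusted p = 0.00524 and 0.0047).

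Several factors moved in opposite directions in the cell types, with every library of one group beyond every library of the other. Such separation was common among all genes tested. From day 0 to day 2 it held for 72.4% in B9, 71.0% in pBAT and 62.8% in pWAT. In the other comparisons of days it held for 42.5% (pWAT, day 6 against day 4) to 79.4% (B9 and pBAT, day 6 against day 0). Some of the steps listed here lost their call without single libraries, as given with each gene. The differences between cell types were not tested, since the tables were treated as normalized separately. From day 0 to day 2, Klf4 changed by -2.48 in B9, -0.75 in pBAT and 0.35 in pWAT, Klf5 by -0.92, 2.45 and 2.93, and Zfp423 by 2.38, -0.47 and 0.68. From day 2 to day 4, Cebpb changed by -0.83, 0.45 and -0.54. From day 4 to day 6, Cebpa changed by -0.63, -0.33 and 0.34, Klf4 by 0.66, -0.62 and -0.85, and Klf15 by 0.92, -0.27 and -0.59. Over the same step Cebpd gave -1.52, 0.17 and -1.30, where the pBAT value did not pass the test, and Srebf1 gave 0.17 in B9 and -0.89 in pBAT. From day 2 to day 6, Cebpb gave -0.26, 0.82 and -0.51, and Klf4 gave 0.43, -0.43 and -0.59. From day 0 to day 6, Cebpd changed by -0.37, 0.61 and -0.54.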

How the results depend on the processing

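The number of members called in each of the 22 comparisons stayed within 1.5 times its value in all 310 alternatives. Of 3077 alternative values of the members' 219 changes, 2999 kept their side of the threshold, 57 lost the call (13 changes) and 21 gained one (13 changes). With a call in either fit, 0 changed sign. Changes of sign between uncalled values were not counted, and Klf4 between BAKO and WT gave such a change. Calls lost without single libraries are given beside each result. Quantile normalization moved the median of all genes to -0.13 for B9 day 6 against day 2 and to -0.12 for pWAT day 6 against day 0, and to within 0.1 of 0 elsewhere. Leaving out 1 library moved the count of members called most for B9 day 6 against day 4 (7 to 9) and for day 4 against day 2 in pBAT (8 to 10) and pWAT (7 to 9).

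With replicate number as a block, 3 of the 219 changes had another call. Cebpa for B9 day 6 against day 2 was 0.22 (adjusted p = 0.0319), Cebpb for pWAT day 6 against day 0 was 0.26 (0.0395), and Srebf1 for B9 day 6 against day 4 was 0.13 (0.17). The replicate block gave 10 members called for B9 day 6 against day 2 and for pWAT day 6 against day 0 (9 without it), 8 for B9 day 6 against day 4 (9 without it), and the same counts elsewhere. Over all genes BAKO against WT gave 3 calls with the block and 15 without. In no table did every same-numbered pair deviate together. The median correlation of their deviations was 0.00518 in B9, 0.0146 in pBAT, 0.022 in pWAT and 0.00744 in the treated cells. In tissue it was 0.317, with 2 of 3 pairs over 0.1 and a lowest value of -0.0201. Read depth is unknown, so what it limits cannot be given.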
